A study of Mus musculus with 16 samples.

Results

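Mitochondrial ribosomal proteins were followed in mouse quadriceps, a thigh muscle of mixed but mainly fast fibres. They were taken as every gene symbol in the expression table that begins with Mrpl or Mrps followed by a number, which gave 77 genes of 23970 symbols, 48 Mrpl genes named for the large subunit and 29 Mrps genes named for the small subunit. Male C57BL/6NTac mice, 16 weeks old, had been fed a control diet (CON) or a high-fat diet (HFD). They were sampled without the exercise test (pre) or 3 h after a single treadmill run to exhaustion (post). The paper states that pre mice were accustomed to the treadmill, and fasted, in the same way as post mice. Post mice had water but no food between the run and sampling. Unexercised below thus means without the run to exhaustion. All mice were of the same strain and none carried an engineered allele. The diets and exercise states make 4 groups (CON-pre and CON-post on the control diet, HFD-pre and HFD-post on the high-fat diet) of 4 libraries each, labelled as separate biological replicates, so that the p-values below measure the spread between these mice. The single time point after 1 bout and the whole-muscle extract limit what the groups can model.

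The mitochondrial ribosome translates the few proteins encoded by mitochondrial DNA, all of them subunits of the oxidative phosphorylation complexes. Its RNA comes from the mitochondrial genome, whereas every one of its proteins is encoded in the nucleus, made in the cytosol and imported. Some subunits descend from bacterial ribosomal proteins and others are specific to mitochondria. The large subunit holds the peptidyl transferase centre and the exit tunnel, and the small subunit decodes the messenger RNA. In muscle, a tissue dense in mitochondria, genes of this kind are often considered among the nuclear targets of the coactivator PGC-1α (Ppargc1a) and of the factors NRF1, GABP (an ETS factor) and YY1.

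The symbols do not fully match the structure. Mrps30 and Mrps18a encode proteins that sit in the large subunit, and Mrps36 encodes a component of the 2-oxoglutarate dehydrogenase complex of the citric acid cycle. By structure the list therefore holds 50 large and 26 small subunit genes, and it is described below by symbol, with the structural split given where it bears on a result. The 77 genes lie on 17 chromosomes.

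Promoters are shown first, as the sequence context of the genes. No binding was measured in this series, and only letter strings associated with NRF1, ETS factors and YY1 are counted. RefSeq promoter windows (build GRCm38.p6, 250 bases before to 50 after the start) were found for 68 of the 77 genes. Some genes had several windows at different starts, and a gene counted as holding a string if any of its windows did. Genes with more windows had more chances to match, and the shares were not adjusted for this. A set of 4 letter strings was searched on both strands. The ETS string CCGGAAG was present in 25 of the 68 genes (36.8%), compared with 20.5% of genes tested and 9.93% of all genes with a window. The NRF1 string, GCGC then N (any base) then TGCGC, was present in 13 (19.1%, against 12.1% and 5.19%) and the YY1 string, AAGATGG then CGG, in 5 (7.35%, against 2.63% and 0.995%). The string TATAAA was present in 5 genes (7.35%), compared with 9.18% of genes tested and 15.7% of all genes. In all, 37 of the 68 genes held an ETS, NRF1 or YY1 string and 4 held both ETS and NRF1. By subunit, the ETS string was in 14 of 42 Mrpl and 11 of 26 Mrps genes, and the NRF1 string in 10 and 3. These strings share no letters that would make one match count for another, and a match is a description of the sequence only.

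The 125 bases before the start are printed for 6 genes on which the text turns, 5′ to 3′ on the gene's strand, with the matched string in capitals. Mrps22 (chr9:98601680-98601804, minus strand) and Mrps18a (chr17:46110879-46111003, plus strand) hold an ETS string. Mrpl12 (chr11:120484512-120484636, plus strand) and Mrpl17 (chr7:105811088-105811212, minus strand, matched on the other strand) hold an NRF1 string. Mrps24 (chr11:5707702-5707826, minus strand), the gene closest to the test threshold, and Mrpl42 (chr10:95501950-95502074, minus strand), the gene with the highest level, hold none of the 3 regulator strings in their windows.
Mrps22: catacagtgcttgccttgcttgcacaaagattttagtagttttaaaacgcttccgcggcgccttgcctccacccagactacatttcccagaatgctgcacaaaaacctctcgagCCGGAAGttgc
Mrps18a: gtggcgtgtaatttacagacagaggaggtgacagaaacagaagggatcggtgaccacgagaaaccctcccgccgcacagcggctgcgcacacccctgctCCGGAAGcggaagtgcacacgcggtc
Mrpl12: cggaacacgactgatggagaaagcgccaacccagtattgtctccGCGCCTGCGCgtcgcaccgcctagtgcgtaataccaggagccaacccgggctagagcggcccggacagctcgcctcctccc
Mrpl17: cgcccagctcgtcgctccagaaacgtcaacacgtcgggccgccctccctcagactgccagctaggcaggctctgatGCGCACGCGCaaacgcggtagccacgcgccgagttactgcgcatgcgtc
Mrps24: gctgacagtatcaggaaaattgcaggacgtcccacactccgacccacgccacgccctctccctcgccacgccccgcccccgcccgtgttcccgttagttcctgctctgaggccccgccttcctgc
Mrpl42: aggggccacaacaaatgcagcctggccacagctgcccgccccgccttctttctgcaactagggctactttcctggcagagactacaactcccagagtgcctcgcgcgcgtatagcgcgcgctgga
The first base of the ETS string lay 11 bases before the start in Mrps22 and 26 in Mrps18a, and that of the NRF1 string 81 bases before it in Mrpl12 and 49 in Mrpl17. Over all members the ETS matches had a median position 19 bases before the start, and 17 of the 29 matches lay in the 100 bases before it. For 24 of the 68 genes a window overlapped that of a gene read from the other strand. Among them was the pair Mrps11 and Mrpl46, which face away from each other on chromosome 7.

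Values are FPKM, in which the fragments assigned to a gene are divided by its length and by the library's mapped total. The authors estimated and deposited them, so that levels are already per length. Every one of the 77 genes had a value above 0 in all 16 libraries and passed the filter for testing, a mean of at least 0.5 FPKM. The total FPKM of a library ranged from 283575 to 329282. Read totals per library were not used here, and the depth of a library relative to CON-pre 1, estimated from the commonest ratio among low values, ranged from 0.688 in CON-pre 2 to 1.15 in HFD-pre 4. The tissue carried the defining genes of fast muscle: all 13 muscle markers were found, with a summed level of 97924 to 108606 FPKM in CON-pre, 85756 to 94179 in HFD-pre, 87758 to 99347 in CON-post and 75779 to 93509.8 in HFD-post. Every HFD-pre sum thus lay below every CON-pre sum, and these genes make up a large share of all FPKM.

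**Figure D1:**
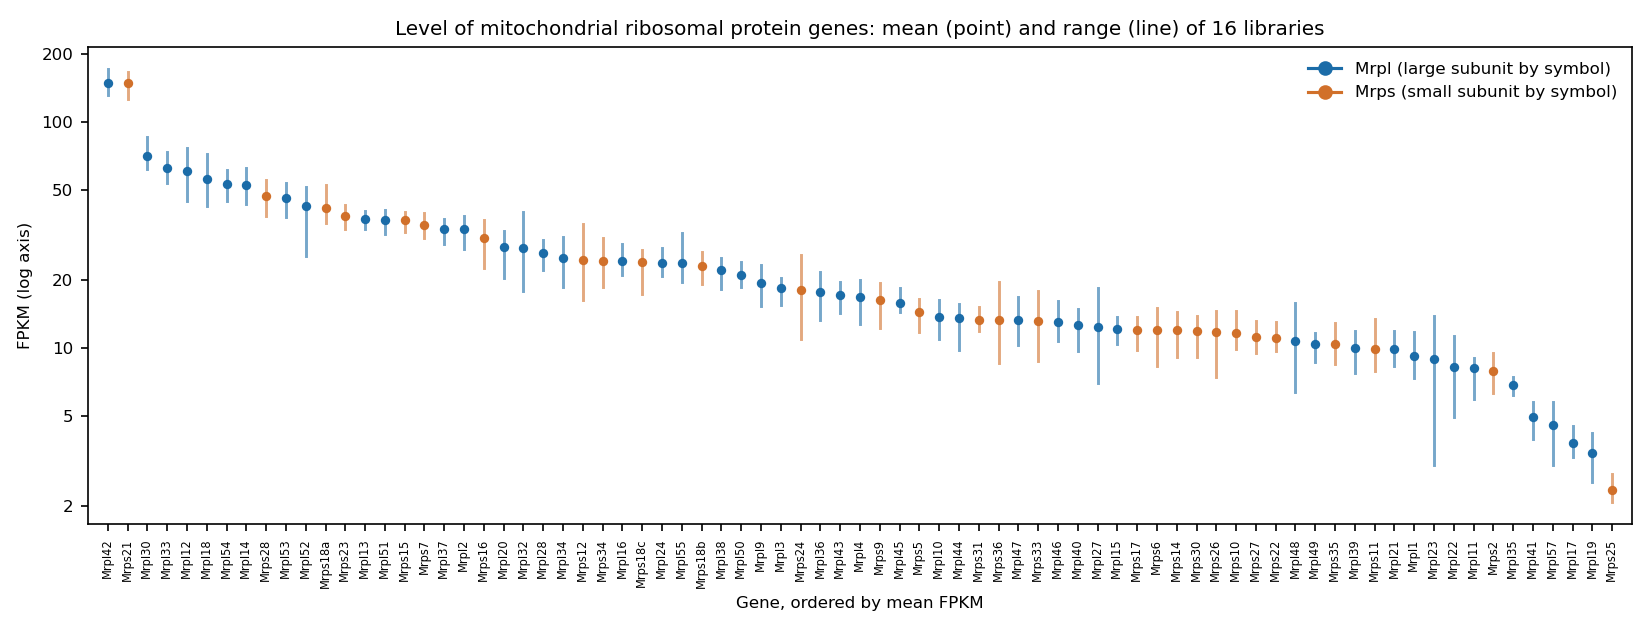
Level of each of the 77 genes in FPKM on a log axis, ordered by mean, with Mrpl genes in blue and Mrps genes in orange. Points are means of 16 libraries and lines run from the lowest to the highest library; Mrpl42 and Mrps21 stand above the rest, and Mrps25 is lowest at 2.35 FPKM.

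The genes were expressed mostly at intermediate levels, with a wide span between the extremes. Mean levels over the 16 libraries had a median of 16.9 FPKM, 18.0 for Mrpl and 13.3 for Mrps genes, compared with 4.51 for all 11256 genes tested, and 74 of the 77 genes lay above that overall median. The levels of 43 genes were between 10 and 30 FPKM, and 8 genes reached 50 FPKM or more. By comparison, the median was 128 FPKM for 37 genes of respiratory complex I, whose mitochondrially encoded partners this ribosome makes, and 14.9 FPKM for 81 genes of the cytosolic ribosome. Over the 76 genes with an annotated length, Spearman's rho between the mean level and the length of the longest transcript was -0.41, a description across genes, which are not independent, and the part of length in the levels was not tested.

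At the top, Mrpl42, a mitochondria-specific protein of the large subunit (GRCm38 chr10:95480805-95501949), had a mean of 148.4 ± 11.6 FPKM (SD, n = 16) and ranged from 132 to 171. Mrps21, a small subunit protein with a bacterial homologue, had a mean of 148.3 ± 10.6 FPKM and ranged from 127 to 166. These 2 did not differ beyond their spread, and both lay above every library of the third, Mrpl30, at 70.4 ± 6.20 FPKM. Mrpl33 and Mrpl12 came next with 62.3 and 60.3 FPKM, followed by Mrpl18, Mrpl54 and Mrpl14 with 56.0, 53.1 and 52.6 FPKM and Mrps28 with 47.1 FPKM. Further down, Mrps18a, a large subunit protein despite its symbol, had 41.7 FPKM.

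At the bottom, Mrps25, a mitochondria-specific protein of the small subunit, had a mean of 2.35 ± 0.181 FPKM and stayed between 2.08 and 2.78. Mrpl19 (3.43 ± 0.50 FPKM) and Mrpl17 (3.80 ± 0.388 FPKM), both large subunit proteins with bacterial homologues, came next, and Mrps2 was the second lowest Mrps gene at 7.89 ± 0.861 FPKM. The highest gene was 63.2 times the lowest, although their products enter one particle. Of the 76 neighbouring pairs in this order, 74 had overlapping ranges. The exceptions were Mrps21 above Mrpl30 and Mrpl35 above Mrpl41.

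Libraries of one group differed little for most of these genes. The standard deviation of log2(FPKM + 0.5) within groups had a median of 0.147 over the 77 genes, 0.146 for Mrpl and 0.159 for Mrps, compared with 0.156 for genes in the same range of FPKM and 0.176 for all genes tested. The lowest value was 0.0668, in Mrpl35. The highest values were 0.566 in Mrpl23 and 0.355 in Mrps36, the gene of the list that is no ribosomal subunit. Mrpl23, a protein at the exit tunnel, ranged in the HFD-pre group alone from 3.05 to 13.9 FPKM.

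As a pool, the 77 genes held between 0.568% and 0.688% of all FPKM in each library. They accounted for 0.596% ± 0.0252 of all FPKM in CON-pre, 0.634% ± 0.0190 in HFD-pre, 0.630% ± 0.0122 in CON-post and 0.655% ± 0.0231 in HFD-post (SD, n = 4). The ranges of the groups overlapped except that the lowest HFD-post library, at 0.637%, lay above the highest CON-pre library, at 0.626%. The total behind this share includes the muscle markers above, whose sums were lower in HFD-pre and HFD-post than in CON-pre, and their part in the share was not tested. In FPKM the sums were 1228 ± 62.7 for Mrpl and 674 ± 54.2 for Mrps genes in CON-pre, and 1235 ± 62.8 and 669 ± 20.5 in HFD-pre. After exercise they were 1269 ± 36.5 and 695 ± 22.5 under CON, and 1265 ± 13.2 and 708 ± 19.4 under HFD. The summed levels of the 4 groups overlapped, so that the separation of CON-pre from HFD-post was seen in the share and not in the sums. The ratio of summed Mrpl to summed Mrps FPKM was 1.83 ± 0.0883 in CON-pre, 1.85 ± 0.0836 in HFD-pre, 1.83 ± 0.0428 in CON-post and 1.79 ± 0.0518 in HFD-post (SD, n = 4). This ratio lay between 1.74 and 1.95 in all 16 libraries, and the 4 groups overlapped.

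**Figure D2:**
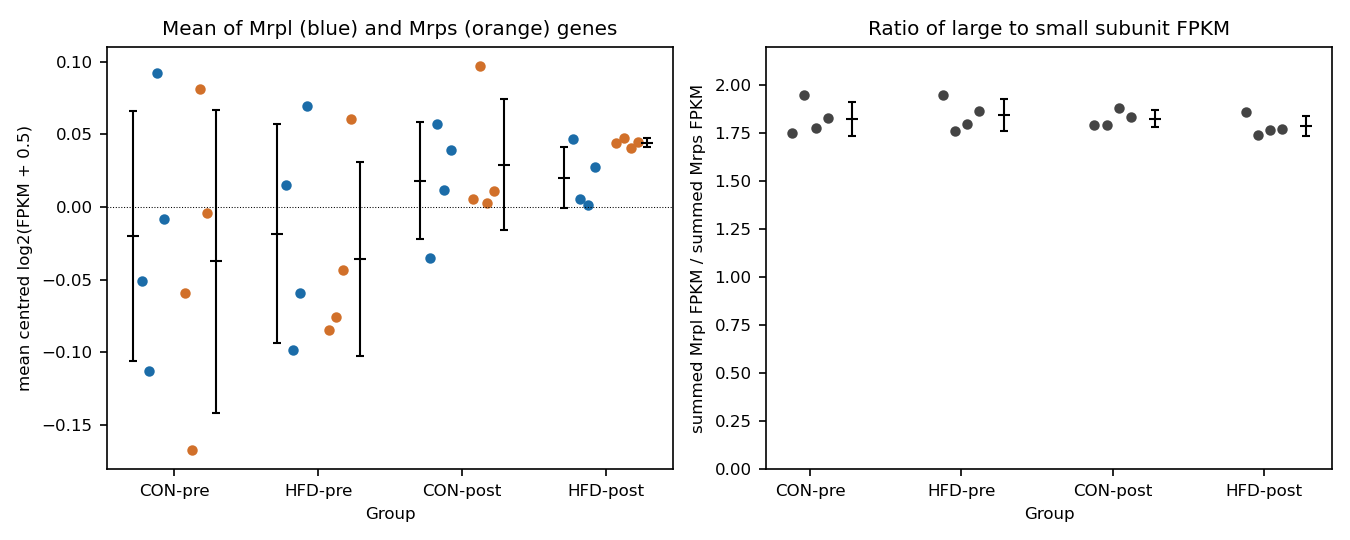
Left, the mean over genes of centred log2(FPKM + 0.5) in each library for Mrpl (blue) and Mrps (orange) genes by group. Right, the ratio of summed Mrpl to summed Mrps FPKM; points are libraries, bars the mean and SD of 4 libraries, and the ratio stays between 1.74 and 1.95 in all of them.

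Some libraries departed from their group across the list, and this touches the comparisons below. CON-pre 2 was the lowest of its group for 42 of the 77 genes (54.5%, compared with 35.9% of all genes tested). HFD-pre 4 was the highest of its group for 40 (51.9%, compared with 37.9%), and CON-pre 3 for 38 (49.4%, compared with 31.3%). HFD-post 1 was the highest of its group for 28 (36.4%, compared with 14.7%) and the lowest for 25 (32.5%, compared with 44.1%), and it held the largest share of FPKM in these genes, 0.688%. CON-pre 2 had the lowest and HFD-pre 4 the highest estimated relative depth. The part of depth in these positions was not tested.

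Group differences were tested with limma on log2(FPKM + 0.5) across all genes in 1 fit of the 4 groups, with Benjamini-Hochberg adjustment over the 11256 genes. A gene was called at an adjusted p under 0.05. Fold changes are on this scale, which slightly understates changes of low genes. None of the 77 genes was called in any comparison, and the counts at an unadjusted p under 0.05 are given below with the share of all genes tested.

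The first question was whether the high-fat diet alone was accompanied by a different level of these genes in unexercised muscle. Between HFD-pre and CON-pre, 0 of the 77 genes passed the test, where 0.346% of all genes tested did. At an unadjusted p under 0.05, 1 gene (1.30%) was higher and 0 were lower, compared with 2.5% and 5.76% of all genes. The median log2 difference was 0.01 over the 77 genes, 0.02 for Mrpl and 0.01 for Mrps, compared with -0.03 over all genes. Groups that did not overlap were found for 0 of the 77 genes, higher or lower, compared with 1.68% and 3.94% of all genes. The 95% interval lay within a 1.5-fold change in either direction for 75 genes and within 2-fold for 76.

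The one gene, Mrpl45, encodes a protein of the large subunit that helps to dock the ribosome at the inner membrane. Its levels were 16.7, 15.4, 14.4 and 14.9 FPKM in CON-pre and 16.9, 16.4, 16.3 and 18.4 FPKM in HFD-pre. Of the HFD-pre libraries 2 lay within the CON-pre range and 2 above it, so that the groups overlapped. The log2 difference was 0.14 (SE 0.06), with a limma adjusted p of 0.583.

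After exercise the diets were compared again. Between HFD-post and CON-post 0 genes were called, against 0.151% of all genes, and at an unadjusted p under 0.05 there were 0 higher and 1 lower (1.30%), compared with 3.12% and 3.17%. That gene was Mrpl51, a mitochondria-specific protein of the large subunit. It had 40.3, 40.7, 38.1 and 37.4 FPKM in CON-post and 32.2, 35.2, 32.0 and 39.5 FPKM in HFD-post. A single HFD-post library reached the CON-post range, and the log2 difference was -0.17 (SE 0.08, limma adjusted p 0.758). The groups did not overlap for 0 higher and 1 lower gene (1.30%), compared with 1.88% and 1.28% of all genes. This was Mrpl4, with 17.7, 19.5, 19.9 and 17.7 FPKM in CON-post and 17.5, 17.4, 15.6 and 16.9 FPKM in HFD-post, whose log2 difference of -0.14 (SE 0.10) had a limma adjusted p of 0.925. Median log2 differences were 0.02 over all 77, -0.0048 for Mrpl genes, of which 23 of 48 were above 0, and 0.03 for Mrps genes, compared with 0.0038 over all genes, and all 77 intervals lay within 2-fold.

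With the diet difference averaged over both exercise states, 0 genes were called, compared with 0.959% of all genes. At an unadjusted p under 0.05, 1 gene (1.30%) was higher and 0 were lower, where 3.89% and 6.54% of all genes were. Mrps9, a small subunit protein with a bacterial homologue, had means of 14.8 ± 1.74 FPKM in CON-pre, 17.3 ± 1.44 in HFD-pre, 15.6 ± 1.57 in CON-post and 17.6 ± 2.46 in HFD-post (SD, n = 4). It was higher on average under HFD in both states, with a log2 difference of 0.19 (SE 0.08) and a limma adjusted p of 0.378. The 95% intervals of 76 of the 77 genes lay within a 1.5-fold change and those of all 77 within 2-fold, so that a change beyond 2-fold lay outside the interval of every gene.

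**Figure D3:**
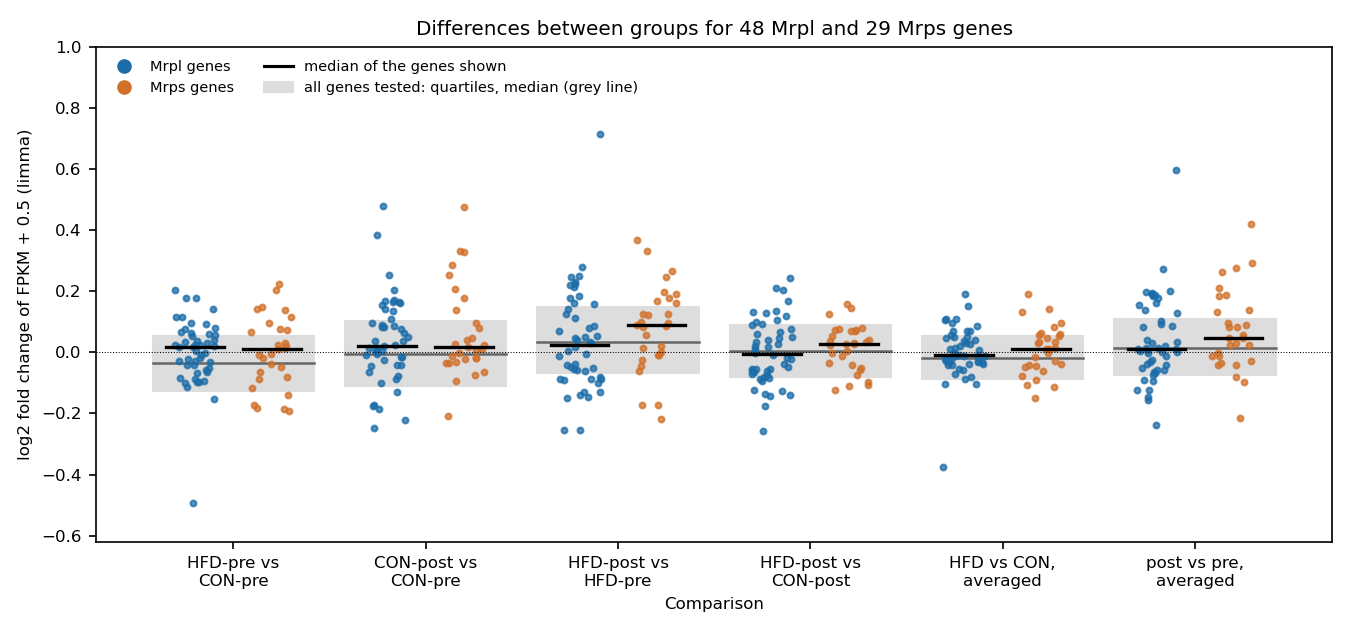
log2 fold changes of the 48 Mrpl (blue) and 29 Mrps (orange) genes in 6 comparisons, from limma on log2(FPKM + 0.5). Black bars are medians of the points and grey boxes the quartiles and median of all 11256 genes tested; the medians of both subunits stay between -0.01 and 0.09.

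The next question was whether these genes responded 3 h after a single bout. In mice on the control diet (CON-post against CON-pre) 0 of 77 genes were called, where 1.11% of all genes were. Higher at an unadjusted p under 0.05 were 3 genes (3.90%) and lower 0, compared with 6.13% and 5.0%. The median log2 difference was 0.02 over the 77 genes, 0.02 for Mrpl and 0.02 for Mrps, compared with -0.01 over all genes. Intervals lay within 1.5-fold for 69 and within 2-fold for 76 genes. The groups did not overlap for 1 higher and 1 lower gene (1.30% each), compared with 3.29% and 2.53% of all genes. These were Mrpl38 (22.5, 18.1, 22.3 and 21.8 FPKM before, 25, 23.6, 23.5 and 22.7 FPKM after) and Mrps11 (11, 10.2, 11 and 10.2 FPKM before, 7.89, 9.80, 9.15 and 9.71 FPKM after). Their log2 differences were 0.16 (SE 0.08) and -0.21 (SE 0.10), with limma adjusted p-values of 0.463 and 0.469, and both were singled out after their values were seen.

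The 3 genes were Mrps24, Mrps6 and Mrpl4. Mrps6, a small subunit protein with a bacterial homologue, had 9.88, 8.30, 12.2 and 10.7 FPKM in CON-pre and 14, 12.6, 10.7 and 15 FPKM in CON-post, with a log2 difference of 0.33 (SE 0.12, limma adjusted p 0.284). Mrpl4, a protein of the exit tunnel wall, had 15, 12.8, 17.7 and 17.2 FPKM in CON-pre and 17.7, 19.5, 19.9 and 17.7 FPKM in CON-post, with a log2 difference of 0.25 (SE 0.10, limma adjusted p 0.300). In each, CON-pre 2 was the lowest library and the groups overlapped or touched. The annotated spans of 20 of the 77 genes overlap another protein-coding gene, and how reads were divided between them is not given in the sources used here. Of the genes named, Mrps6 overlaps Slc5a3 (mean 0.363 FPKM), Mrps25 Nr2c2 (4.86 FPKM), Mrpl14 Tmem63b (17.9 FPKM) and Mrpl18 Tcp1 (49.1 FPKM), while Mrpl2, Mrpl19, Mrpl53, Mrpl57, Mrps2 and Mrps18a overlap genes with means of 0.0369 to 3.89 FPKM.

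In mice on the high-fat diet (HFD-post against HFD-pre) 0 of 77 genes were called, compared with 0.542% of all genes. At an unadjusted p under 0.05, 4 (5.19%) were higher and 2 (2.60%) were lower, compared with 8.5% and 3.22%. The median log2 difference was 0.05 over the 77 genes, 0.02 for Mrpl and 0.09 for Mrps, compared with 0.04 over all genes. Intervals lay within 1.5-fold for 70 and within 2-fold for 76 genes.

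Mrpl53, a mitochondria-specific protein of the large subunit, was the only 1 of the 77 genes whose groups did not overlap here (1.30% higher and 0 lower, compared with 4.72% and 2.1% of all genes). It had 43.0, 38.1, 38.9 and 45.6 FPKM in HFD-pre and 52.0, 47.8, 51.5 and 45.6 FPKM in HFD-post, so that the highest library before and the lowest after were nearly equal, and the log2 difference was 0.25 (SE 0.10, limma adjusted p 0.335). Mrpl9, which has a bacterial homologue in the large subunit, had 18.0, 15.3, 16.7 and 20.7 FPKM before and 23.3, 21.4, 19.0 and 19.5 FPKM after, a log2 difference of 0.23 (SE 0.10, limma adjusted p 0.375). Both genes, like Mrpl2 and Mrps24 below, had their highest HFD-pre value in HFD-pre 4.

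Both genes that were lower belong to the small subunit. Mrps22, a mitochondria-specific protein, had 12.0, 11.8, 11.2 and 13.0 FPKM in HFD-pre and 11.2, 10.1, 10.9 and 10.1 FPKM in HFD-post, with a log2 difference of -0.17 (SE 0.07, limma adjusted p 0.377). Mrps11, which has a bacterial homologue and helps to form the platform of the subunit, had 11.2, 13.4, 9.19 and 9.56 FPKM before and 8.78, 9.60, 9.46 and 8.77 FPKM after, with a log2 difference of -0.22 (SE 0.10, limma adjusted p 0.418). The groups overlapped in Mrps11 and met at their edges in Mrps22.

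Averaging the exercise difference over both diets used all 16 libraries and gave the smallest p-values. Still, 0 of the 77 genes were called, compared with 3.86% of all genes tested. At an unadjusted p under 0.05, 11 (14.3%) were higher and 2 (2.60%) were lower, compared with 11.7% and 6.8% of all genes, so the share that was higher was near the background. By symbol, 7 of 48 Mrpl (14.6%) and 4 of 29 Mrps genes (13.8%) were higher, and 1 of each was lower. By structure, which counts Mrps30 with the large subunit, 8 of 50 large (16.0%) and 3 of 26 small subunit genes (11.5%) were higher. Again 1 of each was lower. The median log2 difference was 0.02 over the 77 genes, 0.01 for Mrpl and 0.05 for Mrps, compared with 0.01 over all genes. Of the 77 genes, 33 had positive differences under both diets, 16 negative under both and 28 opposite signs. The 95% interval lay within a 1.5-fold change for 73 genes and within 2-fold for 76, the exception being Mrpl23.

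**Figure D4:**
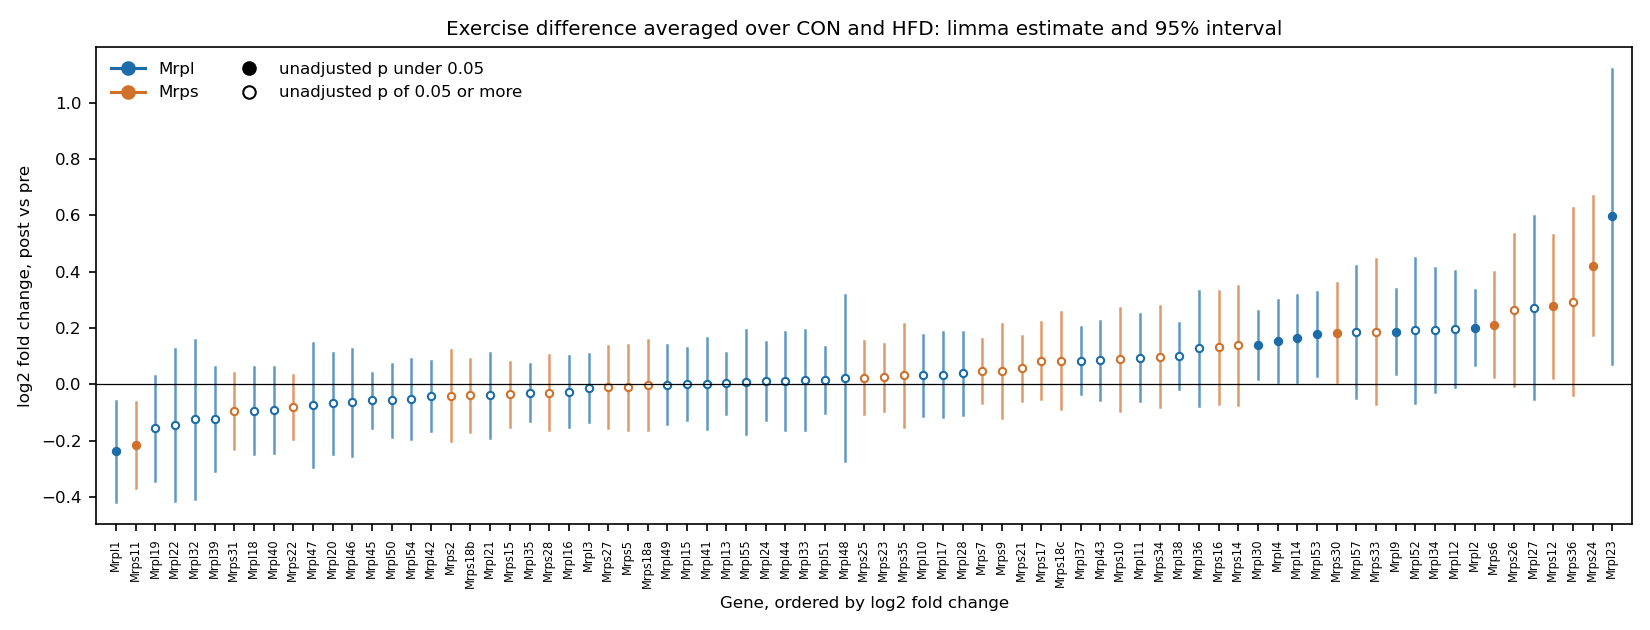
Exercise difference (post against pre) averaged over CON and HFD for each of the 77 genes, as limma log2 fold change with its 95% interval, ordered by size. Filled points have an unadjusted p under 0.05; Mrps24 has the smallest adjusted p, 0.0550, and Mrpl23, at 0.60, the widest interval.

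Mrps24, a small subunit protein with a bacterial homologue at the entry of the messenger RNA, came closest to the threshold. Its levels were 13.4, 11, 17.0 and 20.6 FPKM in CON-pre and 23.7, 25.7, 17.8 and 18.5 FPKM in CON-post. Under HFD they were 15, 14.2, 13.2 and 18.9 FPKM before and 20.9, 20.6, 19.0 and 18.5 FPKM after. Under each diet 1 unexercised library, number 4 in both, lay within the range of the exercised ones, so that the groups overlapped. The averaged log2 difference was 0.42 (SE 0.12, 95% interval 0.17 to 0.67), with a limma p of 0.00229 and an adjusted p of 0.0550. Over the 27 alternative fits the adjusted p ranged from 0.0129 to 0.118. It passed without CON-pre 4 (0.0129), without HFD-pre 4 (0.0325), without CON-post 3 (0.0489) and with array weights (0.0396).

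Mrpl2, a large subunit protein next to the peptidyl transferase centre, had the second smallest adjusted p. Its levels were 30.3, 27.2, 35.6 and 35.5 FPKM in CON-pre and 35.5, 37.6, 35.9 and 33.8 FPKM in CON-post, and 28.8, 29.8, 29 and 34.6 FPKM in HFD-pre and 37.7, 33.1, 35.9 and 38.5 FPKM in HFD-post. The exercised libraries were within a narrow band, and the unexercised ones extended below it. The averaged log2 difference was 0.20 (SE 0.06, limma adjusted p 0.0891). It passed without HFD-pre 4 alone, at an adjusted p of 0.0459.

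The widest difference was that of Mrpl23, at 0.60 (SE 0.25, limma adjusted p 0.209). Its levels were 6.78, 5.5, 8.45 and 12.1 FPKM in CON-pre and 13.4, 13.2, 9.54 and 9.20 FPKM in CON-post. Under HFD they were 5.89, 3.35, 3.05 and 13.9 FPKM before and 12.9, 8.34, 10.02 and 6.83 FPKM after. The value in HFD-pre 4 was the highest of all 16 libraries, and without that library the averaged log2 difference was 0.81, with a limma adjusted p of 0.0192.

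Mrps12, part of the decoding centre, had means of 21.6 ± 4.87 and 22.4 ± 1.42 FPKM in CON-pre and HFD-pre, and 26.7 ± 6.86 and 27.2 ± 4.01 FPKM in CON-post and HFD-post (SD, n = 4). Its averaged log2 difference was 0.28 (SE 0.12, limma adjusted p 0.228). Mrps6, Mrpl9, Mrps30, Mrpl53, Mrpl14, Mrpl4 and Mrpl30 were also positive at an unadjusted p under 0.05, with log2 differences of 0.21, 0.19, 0.18, 0.18, 0.16, 0.15 and 0.14 in that order, and limma adjusted p-values between 0.170 and 0.245. Of the 11 genes, Mrpl53 and Mrps30 encode mitochondria-specific proteins of the large subunit.

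In the opposite direction, Mrpl1, the protein of the stalk beside the tRNA exit site, had 9.63, 10.7, 11.7 and 7.77 FPKM in CON-pre and 7.47, 7.65, 8.87 and 9.67 FPKM in CON-post. Under HFD it had 11.3, 9.69, 9.63 and 9.56 FPKM before and 8.12, 7.37, 9.89 and 8.05 FPKM after. CON-pre 4 was the lowest of its group, and the groups overlapped under both diets. The averaged log2 difference was -0.24 (SE 0.09, limma adjusted p 0.141), and without CON-pre 4 it was -0.29 with an adjusted p of 0.0390. For Mrps11 the averaged value was -0.21 (SE 0.07, limma adjusted p 0.116).

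**Figure D5:**
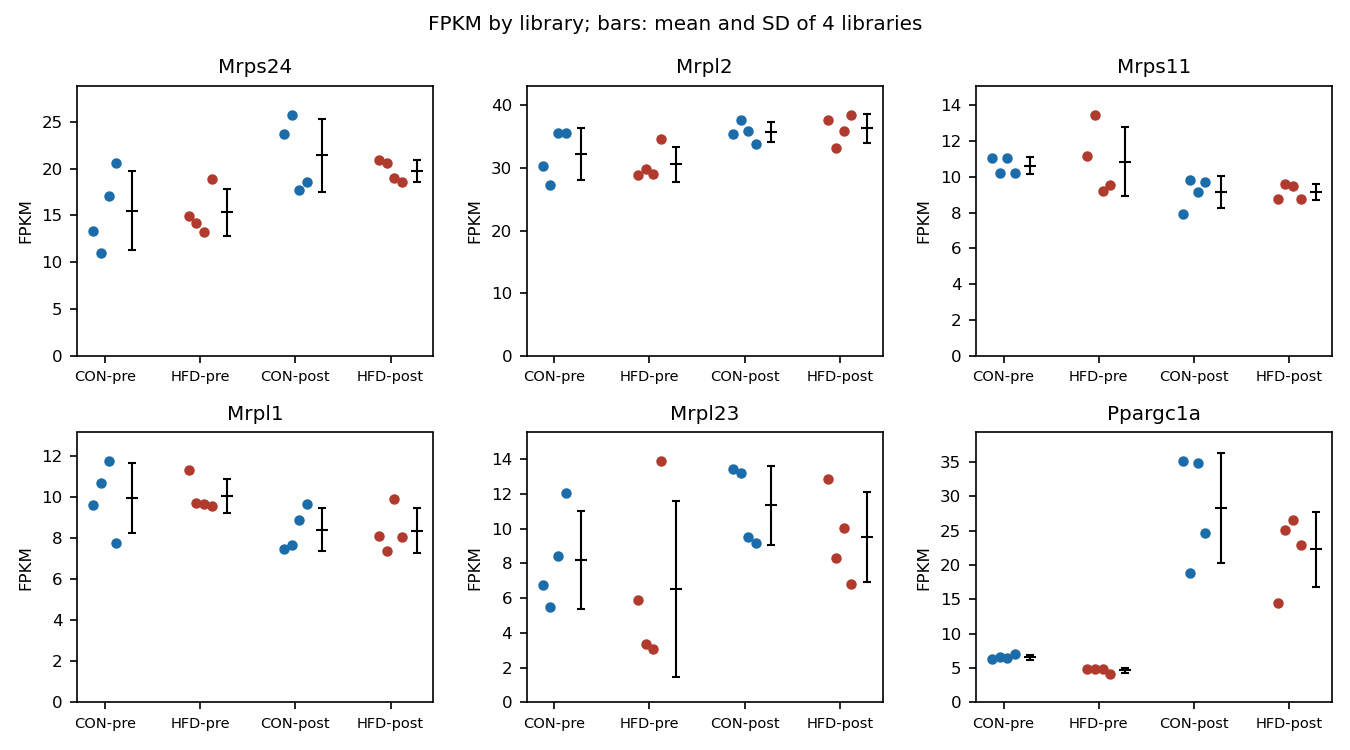
FPKM in each library for Mrps24, Mrpl2, Mrps11, Mrpl1, Mrpl23 and, for comparison, Ppargc1a, with CON in blue and HFD in red and bars for the mean and SD of 4 libraries. The ribosomal genes overlap between unexercised and exercised groups when both diets are considered, whereas every exercised library of Ppargc1a, at 14.5 FPKM or more, lies above every unexercised one.

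Mrpl12, the stalk protein that recruits translation factors and also contacts the mitochondrial RNA polymerase, was not among these genes. It had 46.5, 44.5, 65.2 and 69.2 FPKM in CON-pre and 63.3, 70.1, 58.4 and 58.0 FPKM in CON-post, and 49.9, 56.7, 51.9 and 67.6 FPKM in HFD-pre and 76.7, 64.6, 58.9 and 63.6 FPKM in HFD-post. Libraries 1 and 2 were low in CON-pre and library 4 was high in both unexercised groups, as in Mrps24 and Mrpl23. The averaged exercise difference was 0.20 on the log2 scale (SE 0.10, limma adjusted p 0.296). Mrps36, the dehydrogenase component, had a difference of 0.29 (SE 0.16, limma adjusted p 0.338). Mrps18a had an interval from -0.16 to 0.16, and Mrpl42 and Mrps21, the most abundant members, had -0.04 (SE 0.06) and 0.06 (SE 0.05).

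Finally, the interaction asks whether the exercise difference itself depended on diet. Here 0 of the 77 genes were called, and so were 0.0% of all genes. There were 0 higher and 0 lower genes at an unadjusted p under 0.05, compared with 2.11% and 1.05% of all genes. The median interaction was 0.00 over the 77 genes and 0.04 over all genes on the log2 scale. This comparison was the least precise, with intervals within 1.5-fold for 63 and within 2-fold for 76 of the 77 genes.

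The subunits were also compared with each other. The Mrpl median minus the Mrps median was 0.01 between HFD-pre and CON-pre, 0.01 between CON-post and CON-pre, -0.07 between HFD-post and HFD-pre and -0.03 between HFD-post and CON-post on the log2 scale. Averaged over the other factor it was -0.02 for diet and -0.04 for exercise. These medians moved with single libraries. The value of HFD-post against HFD-pre was -0.11 without HFD-post 2 and -0.0022 without HFD-pre 1, and that of HFD-post against CON-post was -0.053 without HFD-post 3 and 0.0016 without CON-post 3. The averaged exercise value was -0.057 without CON-post 2 and -0.024 without HFD-post 1, and the averaged diet value -0.032 without HFD-pre 1 and 0.0017 without HFD-pre 3. Between CON-post and CON-pre it was -0.018 without CON-post 3 and 0.018 without CON-post 4. Taken instead as the mean centred log2 level of Mrpl minus that of Mrps genes, the difference was -0.04 between HFD-post and HFD-pre and -0.03 between CON-post and CON-pre (SE 0.0261 for each, from the pooled SD of 0.0370 between libraries of one group), and -0.04 for exercise averaged over diet (SE 0.0185). For diet averaged over exercise it was -0.01 (SE 0.0185). No test was made over the lists.

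Other genes of mitochondrial translation were examined beside the subunits. None was called in any of the 7 comparisons by limma among 29 genes for assembly of the mitochondrial ribosome and modification of its RNA, 16 translation factors, 20 mitochondrial aminoacyl-tRNA synthetases and amidotransferase subunits, 9 tested genes of mitochondrial DNA maintenance and transcription, and 7 ribosomal subunits with other names, of which Mrpl57, once named Mrp63, is also among the 77. In the exercise difference averaged over diet, 3, 1, 0, 1 and 1 genes of these lists were higher and 1, 0, 0, 0 and 0 lower at an unadjusted p under 0.05, compared with 11.7% and 6.8% of all genes. With diet averaged over exercise 2 of the 7 subunits with other names, Aurkaip1 and Dap3, were lower by this measure (28.6%, compared with 6.54%), and between HFD-post and HFD-pre 4 of the 29 assembly and modification genes were higher, Malsu1, Ngrn, Rnmtl1 and Wbscr16 (13.8%, compared with 8.5%). Of 9 regulators of nuclear mitochondrial genes, Ppargc1a and Myc were called. Ppargc1a, the coactivator of mitochondrial biogenesis, had 6.28, 6.57, 6.42 and 7.11 FPKM in CON-pre and 35.1, 18.8, 34.8 and 24.6 FPKM in CON-post. Under HFD it had 4.90, 4.87, 4.84 and 4.18 FPKM before and 14.5, 25.1, 26.5 and 23.0 FPKM after.

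All exercised libraries thus lay above all unexercised ones. Ppargc1a rose by 1.98 on the log2 scale (SE 0.19, limma adjusted p 4.38e-05) under CON and by 2.10 (SE 0.19, limma adjusted p 2.87e-05) under HFD. Myc, a growth-related transcription factor, rose by 0.80 in the averaged comparison (SE 0.16, limma adjusted p 0.00927), with means of 1.58 and 1.61 FPKM in CON-pre and HFD-pre and 3.5 and 2.66 FPKM in CON-post and HFD-post. The other 7 regulators, Nrf1, Gabpa, Gabpb1, Esrra, Yy1, Ppargc1b and Pprc1, were not called in any comparison. With exercise averaged over diet, 4 of the 9 (44.4%, compared with 11.7% of all genes) were higher at an unadjusted p under 0.05, which adds Pprc1 (log2 difference 0.21, limma adjusted p 0.0658) and Ppargc1b (0.32, limma adjusted p 0.254) to the pair called. By the same measure 3 of the 9 were higher between CON-post and CON-pre (33.3%, compared with 6.13%), Ppargc1a, Myc and Pprc1, and none was lower. Between HFD-post and HFD-pre 3 of the 9 were also higher (33.3%, compared with 8.5%), Ppargc1a, Myc and Ppargc1b. There Yy1 was lower (11.1%, compared with 3.22%, log2 difference -0.16). In the diet comparisons Ppargc1a was the lower 1 of the 9 by this measure (11.1%), by -0.45 between HFD-pre and CON-pre (compared with 5.76% of all genes, limma adjusted p 0.520) and by -0.39 with diet averaged over exercise (compared with 6.54%, limma adjusted p 0.234), and none was higher.

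The cytosolic ribosome gave different values in the same libraries. Its 81 tested genes had a median log2 difference of 0.28 between HFD-post and HFD-pre, where the 77 mitochondrial ones had 0.05, and 27 of them (33.3%) were higher at an unadjusted p under 0.05, compared with 8.5% of all genes. Between CON-post and CON-pre the median was 0.11, with 1 higher and 1 lower (1.23% each, compared with 6.13% and 5.0%), and between HFD-pre and CON-pre it was -0.14, with 1 higher and 5 lower (1.23% and 6.17%, compared with 2.5% and 5.76%). In the exercise difference averaged over diet the median was 0.20 and 31 genes (38.3%) were higher at that level, compared with 11.7% of all genes. Rpl14 and Rps28 were called as higher there, and Rps20 was called as lower in the averaged diet difference. Many cytosolic ribosomal genes have near-identical pseudogene copies, so that their FPKM values are uncertain, and their median SD within groups was 0.257 on the log2 scale. The median difference of the complex I genes was 0.02 between HFD-pre and CON-pre, 0.04 between CON-post and CON-pre, 0.05 between HFD-post and HFD-pre and 0.06 for exercise averaged over diet, and none of these genes was called in any comparison. The difference between the lists was not tested.

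In a whole-muscle extract, fewer cells of a type and less RNA per cell cannot be told apart. Markers of muscle and of other cells moved in part with the groups. No muscle marker was called, but 9 of the 13 were lower under HFD at an unadjusted p under 0.05 with diet averaged over exercise, where 6.54% of all genes were, and their median log2 difference was -0.15. Between HFD-pre and CON-pre 5 of the 13 were lower by that measure (38.5%, compared with 5.76%), with a median of -0.20. With exercise averaged over diet 3 of the 13 were lower (23.1%, compared with 6.8%), with a median of -0.05. Between CON-post and CON-pre 3 of the 13 were lower (23.1%, compared with 5.0%), with a median of -0.12. Between HFD-post and HFD-pre 0 of the 13 were, with a median of -0.05. Of the 8 adipocyte markers, 7 were tested, Cfd was called as lower and Lep as higher with diet, and the list's summed level ran from 322 to 476 FPKM over the unexercised and from 339 to 659 FPKM over the exercised libraries. Between HFD-post and HFD-pre all 7 had a difference above 0, with a median of 0.47, and none was called. With exercise averaged over diet the median was 0.29, and 2 of the 7 were higher at an unadjusted p under 0.05 (28.6%, compared with 11.7%). Ucp1, the brown fat marker of that list, was at 0 in some library. Of 6 endothelial markers, Pecam1 was called with exercise (log2 difference 0.36 averaged over diet), while the list's median was 0.05 and 4 of the 6 had a difference above 0. Between HFD-post and HFD-pre the endothelial median was 0.03, from -0.29 to 0.39, with 3 of the 6 above 0. Between HFD-pre and CON-pre all 6 were above 0 with a median of 0.15, and between CON-post and CON-pre all 6 with a median of 0.10, and in each of these comparisons 2 of the 6 (33.3%, compared with 2.5% and 6.13% of all genes) were higher at an unadjusted p under 0.05. No macrophage, slow-fibre or blood marker was called. All 7 slow-fibre markers had a difference below 0 under HFD, with a median of -0.58 between HFD-pre and CON-pre and -0.46 with diet averaged over exercise, and above 0 with exercise averaged over diet, with a median of 0.16. None of them reached an unadjusted p under 0.05 in any comparison. Their summed level ran from 199 to 694 FPKM in CON-pre and from 188 to 502 FPKM in HFD-pre. Their median SD within groups was 0.82 on the log2 scale, compared with 0.176 for all genes tested. As markers of the same fibre type they are not 7 independent observations. All 6 macrophage markers were below 0 between HFD-pre and CON-pre and with diet averaged over exercise, with medians of -0.15 and -0.14. Between HFD-post and CON-post 1 of the 6 was above 0. After exercise 3 of the 6 were above 0 under CON (median -0.02) and 5 of the 6 under HFD (median 0.09). At an unadjusted p under 0.05, 1 of the 6 was higher (16.7%) under CON, under HFD and averaged, compared with 6.13%, 8.5% and 11.7% of all genes. The 6 blood and marrow markers were all below 0 between CON-post and CON-pre, with a median of -0.31 and down to -1.86, and had a median of 0.02 with 3 above 0 between HFD-post and HFD-pre and of -0.11 with exercise averaged over diet. Their part in the values of the ribosomal genes was not tested.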

How the data were processed

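Polyadenylated RNA from quadriceps was sequenced with a stranded kit on a HiSeq2500. Per the submitters' processing notes, FastQC, TopHat and Cufflinks were used with mm9; versions are not given in the sources used here. The deposited values are FPKM per gene and library, computed by the authors. The study's methods give 1 approximate read number per sample; read counts per gene or library were not used here, apart from the relative depth estimate, and the precision comes from the spread between libraries. Of 24487 entries, 27 named by a number were left out (0.0771% of FPKM) and 260 symbols in several entries were summed. log2(FPKM + 0.5) was tested for 11256 genes with limma 3.58.1 in R 4.3.3 (mean-variance trend, 1 fit of 4 groups, Benjamini-Hochberg). Tested on simulated data with 200 of 11256 genes changed by 1.5 on the log2 scale in HFD-pre against CON-pre, the fit recovered 200. There were 9 false calls. The changed genes were drawn from those above a minimum level, leaving out those of widest spread. That change was larger than any seen among the ribosomal genes, and recovery of smaller changes was not tested. Tables were made in Python 3.11.15. Coordinates are from RefSeq GRCm38.p6; the build of the files was read from 692 gene loci of the study's tables, of which 692 overlapped GRCm38 genes and 114 NCBIM37 genes.

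The genes and lists were chosen with earlier results of these data known. Named genes were, per comparison, those called, the 5 largest rises and falls at an unadjusted p under 0.05, the highest and lowest by level, genes whose symbol and structure differ, Mrpl12, Mrps12, called genes of the other lists and Ppargc1a. Alternatives changed the pseudocount, filter, scaling, variance model, groups fitted, replicate block, threshold and subunit assignment, and left out each library.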

Additional observations from a re-analysis of the deposited data

Results flagged for a closer look

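Among 112 sets of 4 FPKM values (28 named genes in 4 groups) and 16 sets of 4 library averages, 6 of 128 (4.69%) held a library whose gap to the others exceeded Dixon's critical value of 0.829 for 4 values. Chance flags about 1 in 20 sets. Mrpl1 was high in HFD-pre 1, at 11.3 FPKM against 9.56 to 9.69 in the other libraries of its group. Mrpl2 was high in HFD-pre 4, at 34.6 FPKM against 28.8 to 29.8. Mrps36 was high in the same library, at 15.2 FPKM against 9.52 to 9.97. Mrpl9 was high in CON-post 2, at 23.0 FPKM against 19.2 to 19.8. Mrps30 was low in HFD-post 4, at 11.5 FPKM against 13.2 to 13.4. The mean centred log2 level of the Mrps genes was high in CON-post 2, at 0.10 against 0.00 to 0.01, and in that library the mean over all genes tested was also 0.11 above the centre. No interaction of diet and exercise was called for any of the 77 genes.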

How the results depend on the processing

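Under the other pseudocounts, filters, scalings, variance models and choices of groups, the count of called genes among the 77 stayed at 0 in every comparison, except that array weights gave 1 in the exercise difference averaged over diet (5.25% of all genes). With an adjusted p under 0.1 the count there was 2 (6.92% of all genes). At an unadjusted p under 0.05 the counts were 1 for HFD-pre against CON-pre, 3 for CON-post against CON-pre, 6 for HFD-post against HFD-pre, 1 for HFD-post against CON-post, 1 for diet averaged over exercise, 13 for exercise averaged over diet and 0 for the interaction. Leaving out 1 library at a time gave 0 to 3 genes in the averaged exercise difference (2.19% to 5.02% of all genes) and 0 in the others. The count of 3 came without HFD-pre 4 (Mrps24, Mrpl2 and Mrpl23), that of 2 without CON-pre 4 (Mrps24 and Mrpl1) and that of 1 without CON-post 3 (Mrps24). The cause was not tested.

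The median of the 77 genes relative to all genes moved by less than the spread between libraries (SD 0.0471) in each of 168 alternative values. That spread is wide beside values such as 0.013 for HFD-post against HFD-pre, so a value could change sign within it. Over fits without 1 library it ranged from -0.015 to 0.019 for HFD-post against HFD-pre and from -0.020 to 0.024 for HFD-post against CON-post. For exercise averaged over diet it ranged from -0.0032 to 0.029. The Mrpl median minus the Mrps median ranged, over fits without 1 library, from -0.11 to -0.0022 for HFD-post against HFD-pre, from -0.022 to 0.046 for HFD-pre against CON-pre and from -0.056 to 0.019 for the interaction, which was -0.055 with array weights; the cause was not tested. No scaling moved the median of all genes by more than 0.0499. Of 598 alternative values for 25 differences of named genes, 0 changed sign and 7 passed the threshold.

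The replicate numbers shared by the groups showed no general pairing of the libraries. Deviations of libraries with the same number correlated between -0.220 and 0.213 (median -0.022). Those of libraries with different numbers correlated between -0.221 and 0.212 (median 0.016). Of 16 libraries, 6 were closest to one of their own number, and a pairing of some libraries could not be decided from these values. With the replicate block the count of called genes was 0 in each of the 7 comparisons, and the averaged exercise difference of Mrps24, 0.42 by construction of the balanced design, had a limma adjusted p of 0.0906. Groups restricted to those compared could not be fitted for the averaged differences and the interaction. With 4 libraries a group and FPKM without read counts, small differences of single genes could not be resolved.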
